A study of Arabidopsis thaliana with 12 samples.

Results

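The interaction of genotype and TSA asks, gene by gene, whether the genotype effect, WUS-GR against Col-0, was itself different once histone deacetylases were inhibited. It was taken as (WUS-GR TSA minus Col-0 TSA) minus (WUS-GR DEX minus Col-0 DEX) on the log2 scale, and it drew on all 12 of the 12 libraries of the series. The WUS-GR TSA group was the homozygous pUBQ10:mCherry-GR-linker-WUS line given DEX together with 1 µM TSA, and the Col-0 TSA group was wild type with the same treatment. The WUS-GR DEX and Col-0 DEX groups were the same line and wild type with DEX but without TSA. All 4 groups were whole seedlings at 5 days, treated for 2 h, with 3 biological replicates each, and all received DEX, at 25 µM by the labels, while the methods of the study name another concentration. WUS-GR seedlings without DEX were not analysed here, so an effect of the uninduced fusion and an effect of DEX in this line cannot be told apart from induced WUS. The ubiquitin promoter drives the fusion in nearly every cell, far outside the stem cell niche where WUS normally acts. Of the cell type markers, 4 of 7 root epidermis and hair genes and 2 of 3 root cap genes had 0 counts in every library. Their summed levels stayed at or below 0.567 and 0.102 CPM, that is counts in every 1000000 of the scaled library total. These markers were thus absent or nearly so, while the 3 endodermis markers summed to 12.1 to 37.5 CPM over the libraries. The share of root tissue in these whole-seedling libraries was not tested.

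WUS is a homeodomain transcription factor of the shoot stem cell niche, and the GR tag keeps the fusion protein in the cytoplasm until DEX lets it enter the nucleus. WUS is known to bind TOPLESS co-repressors, adaptor proteins that recruit histone deacetylases, and these enzymes remove acetyl groups from histone tails and lower transcription. TSA blocks class I and class II deacetylases. A positive interaction therefore means that the WUS-GR level stood higher relative to Col-0 with TSA than without it, and a negative one that it stood lower. Below, a gene past the threshold with a positive interaction is called upward and one with a negative interaction downward.

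The promoters of 4 genes with large interactions are shown because they carry different sets of motifs, 2 from the downward side and 2 from the upward side. Each runs from 250 bases before to 50 bases after the annotated start, cut from the RefSeq TAIR10.1 genome, and capitals mark exact matches on either strand to TTAATGG (a WUS site), CACGTG (G-box), AAACCCTA (telo-box), AAAATATCT (evening element), GAANNTTC (heat shock element core), TTGACC or TTGACT (W-box), TGTCTC (auxin response element), ACGTGTC or ACGTGGC (abscisic acid response element), GGNCCCAC (TCP site) or TATAAA. Some matches overlap, such as TGTCTC with CCATTAA in BRU6. BRU6, also known as GH3.2, lies on chromosome 4 (window chr4:17579368-17579667, + strand), RD29B on chromosome 5 (chr5:21236771-21237070, + strand), BZIP60 on chromosome 1 (chr1:16137414-16137713, - strand) and ICS1 on chromosome 1 (chr1:28070045-28070344, + strand).
BRU6: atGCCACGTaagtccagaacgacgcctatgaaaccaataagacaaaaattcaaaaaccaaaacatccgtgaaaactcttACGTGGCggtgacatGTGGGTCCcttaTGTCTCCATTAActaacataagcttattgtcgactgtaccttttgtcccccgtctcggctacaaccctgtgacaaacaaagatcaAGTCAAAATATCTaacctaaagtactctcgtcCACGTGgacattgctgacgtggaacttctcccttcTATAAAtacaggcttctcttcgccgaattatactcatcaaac
RD29B: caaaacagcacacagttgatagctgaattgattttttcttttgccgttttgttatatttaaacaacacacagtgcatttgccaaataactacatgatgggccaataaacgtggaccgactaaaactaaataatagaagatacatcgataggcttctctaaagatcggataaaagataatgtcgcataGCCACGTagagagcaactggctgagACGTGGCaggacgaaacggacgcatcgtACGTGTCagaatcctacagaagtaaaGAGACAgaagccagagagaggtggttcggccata
BZIP60: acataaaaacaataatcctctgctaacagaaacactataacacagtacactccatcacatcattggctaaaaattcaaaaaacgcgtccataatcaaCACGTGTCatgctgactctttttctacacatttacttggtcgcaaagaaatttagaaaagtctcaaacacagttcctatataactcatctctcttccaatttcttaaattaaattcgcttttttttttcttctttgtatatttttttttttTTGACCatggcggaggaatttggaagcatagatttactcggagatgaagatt
ICS1: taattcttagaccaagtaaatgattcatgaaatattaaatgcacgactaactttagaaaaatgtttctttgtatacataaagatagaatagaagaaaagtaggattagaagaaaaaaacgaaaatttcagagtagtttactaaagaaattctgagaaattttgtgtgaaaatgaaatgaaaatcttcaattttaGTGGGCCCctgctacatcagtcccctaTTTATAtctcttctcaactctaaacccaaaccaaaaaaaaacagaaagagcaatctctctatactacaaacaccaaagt
RD29B held 3 matches to the abscisic acid response element, and BRU6 held 2 of them together with a G-box and a TTAATGG site. In BZIP60 a G-box overlapped an abscisic acid response element, and ICS1 held a TCP site and a TATA box. Over all nuclear protein-coding genes with such a window, 8.10% held TTAATGG, 7.68% CACGTG, 7.64% the abscisic acid response element, 1.32% GGNCCCAC and 52.1% TATAAA. A match is a run of letters and not evidence of binding. The windows of BBX14, KCS1 and AT1G04990, described below, held no match.

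Of 17915 genes tested, 5560 passed a Benjamini-Hochberg adjusted p of 0.05 in the quasi-likelihood test of edgeR, or 31.0%, with 3176 upward (17.7%) and 2384 downward (13.3%). At an unadjusted p under 0.05 there were 7408. The interaction of genes past the threshold had a median absolute size of 0.81 (quartiles 0.56 and 1.24), against a median standard error of 0.20 over all tested genes, and 2030 were at least 1 log2 unit. In 62 of them every library of at least 1 group had 3 or fewer counts, so the fitted size there is no measure. The zero of this scale is set by the normalisation. TMM factors ran from 0.842 to 0.850 in WUS-GR TSA, from 0.981 to 1.01 in Col-0 TSA, from 1.11 to 1.13 in WUS-GR DEX and from 1.04 to 1.07 in Col-0 DEX. The median interaction of all genes was 0.0030 with these factors and -0.32 with library totals alone, which left 1569 genes upward and 5741 downward. DESeq2 size factors gave 3130 and 2429. Below, interactions are relative to the TMM zero, and the counts under library totals are given beside it.

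Total counts ran from 14810658 to 21578662 per library, and the 20 most abundant genes held 12.4% to 12.8% of them in WUS-GR TSA, 9.50% to 9.95% in Col-0 TSA, 11.2% to 11.5% in WUS-GR DEX and 9.13% to 9.24% in Col-0 DEX. Plastid and mitochondrial genes took 1.25% of counts in WUS-GR TSA replicate 2 and 1.44% in WUS-GR DEX replicate 1, against 0.163% to 0.694% in the other 10. Without these 2 libraries 2293 genes were upward and 1657 downward. Leaving out 1 library at a time gave totals from 4525, without WUS-GR TSA replicate 1, to 5383, without Col-0 DEX replicate 1.

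WUS itself (AT2G17950, chromosome 2, 7808871 to 7810811) was read at 8145, 8049 and 7575 CPM in WUS-GR TSA, at 2.32, 1.94 and 1.80 CPM in Col-0 TSA, at 5191, 5183 and 4898 CPM in WUS-GR DEX and at 1.68, 2.18 and 2.45 CPM in Col-0 DEX. Transgene and endogenous transcripts are not separated in these counts, and the genotypes did not overlap in any treatment. The interaction of WUS was 0.72 (SE 0.18, edgeR adjusted p = 0.0078), so the level of the transgene was not the same in the treated and the untreated line, and with library totals alone it was 0.40 (edgeR adjusted p = 0.0956). Every other gene's interaction is thus read across seedlings with a higher WUS level with TSA than without on the TMM scale, and the part of that difference in the other interactions was not tested.

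UBQ10 (AT4G05320), a polyubiquitin gene whose promoter drives the transgene, stood at 5900, 5837 and 6242 CPM in WUS-GR TSA and at 5688, 5722 and 5764 CPM in Col-0 TSA. Without TSA it stood at 3444, 3689 and 3619 CPM in WUS-GR DEX and at 5883, 6128 and 6094 CPM in Col-0 DEX. WUS-GR DEX alone was low, and its interaction was 0.82 (SE 0.10, edgeR adjusted p = 3.41e-05), or 0.49 with library totals alone (edgeR adjusted p = 0.0016). It was the member with the largest interaction of 15 tested constitutive reference genes, of which 3 passed upward and 0 downward with TMM and 1 upward and 7 downward with library totals. Without WUS-GR TSA replicate 1, 1 of them passed upward.

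**Figure D1:**
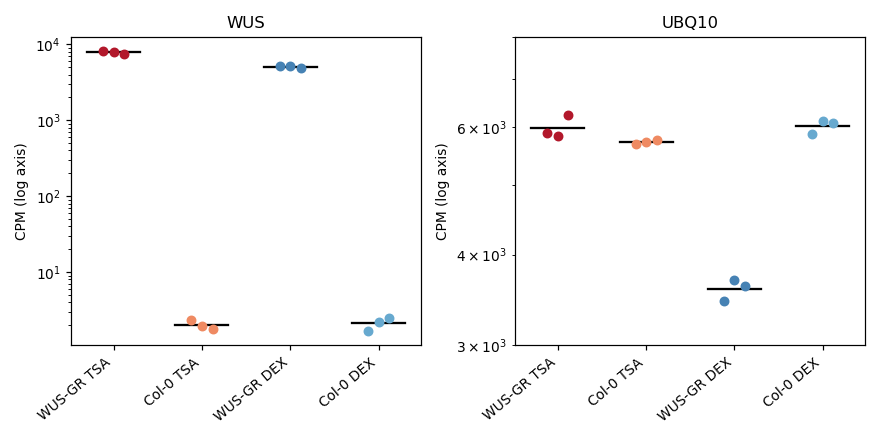
Level of WUS and of UBQ10 in each of the 12 libraries, in CPM on log axes, with 3 points per group and a line at their mean. WUS was near 2 CPM in all Col-0 libraries and between 4898 and 8145 CPM in WUS-GR, and UBQ10 was at or below 3689 CPM in the WUS-GR DEX libraries and at or above 5688 CPM elsewhere.

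The sign of the interaction does not say how the genotype difference changed, so each gene past the threshold was sorted by its fitted differences. Of the 3176 upward genes, 1164 (36.6%) were lower in WUS-GR both with and without TSA but by less with it, with a median difference of -0.42 with TSA and -1.45 without. In 1408 (44.3%) the difference changed sign, with medians of 0.35 with TSA and -0.40 without. The remaining 604 (19%) were higher in WUS-GR in both treatments and more so with TSA, with medians of 0.91 and 0.25 without TSA. The 2384 downward genes split into 701 (29.4%) with a smaller excess in WUS-GR with TSA, 1161 (48.7%) with a change of sign and 522 (21.9%) that were lower in WUS-GR and more so with TSA. Over both directions, 33.5% of the genes kept the sign of the difference at a smaller size, 46.2% changed sign and 20.3% kept it at a larger size. These classes rest on fitted values whose single differences were not tested here, and many changes of sign were between small differences.

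**Figure D2:**
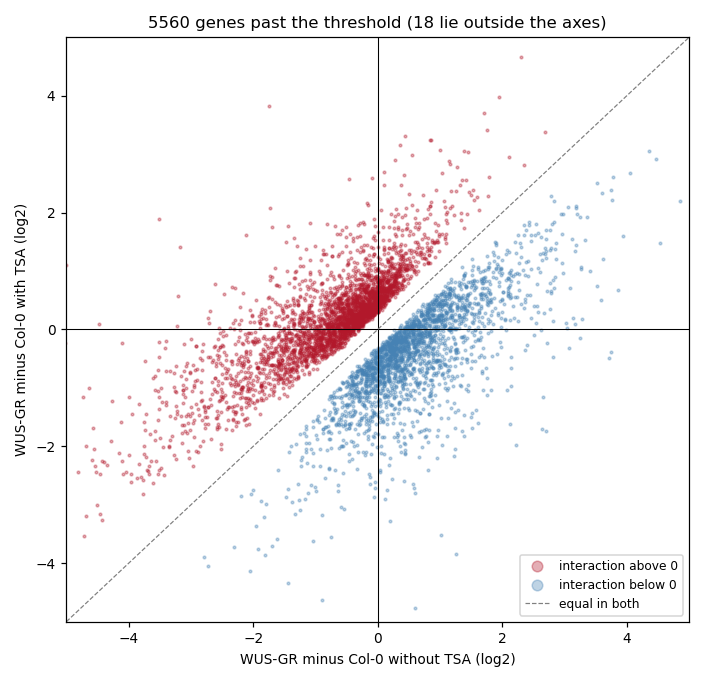
Fitted WUS-GR minus Col-0 difference with TSA (vertical, log2) against the same difference without TSA (horizontal, log2) for the 5560 genes past the threshold, red for a positive and blue for a negative interaction, with 18 genes outside the axes. Distance from the dashed line of equal differences is the interaction, and most red points lie left of the vertical zero line, where WUS-GR was below Col-0 without TSA.

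The largest interactions were taken from called genes whose log2 CPM averaged over 1 and which had at least 10 counts in every library, and genes outside these limits can have larger fitted values. Of the 5 most positive of them, 4 had a common form, a deficit of WUS-GR against Col-0 without TSA that was absent or smaller with it. BBX14 (AT1G68520, chromosome 1, 25708175 to 25710989), a B-box zinc finger protein, stood at 12.3, 13.3 and 10.8 CPM in WUS-GR TSA, at 13.8, 17.5 and 11.9 CPM in Col-0 TSA, at 0.781, 1.67 and 0.708 CPM in WUS-GR DEX and at 20.3, 16.6 and 17.9 CPM in Col-0 DEX. The genotypes overlapped with TSA and lay far apart without it. Its interaction was 3.86 (SE 0.30, edgeR adjusted p = 5.03e-07). BBX14 overlaps a gene on the other strand by 329 bases, and the strand setting of the counting is not known.

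KCS1 (AT1G01120, chromosome 1, 57164 to 59215), a 3-ketoacyl-CoA synthase that elongates very long chain fatty acids of the cuticle, stood at 31.01, 39.0 and 29.7 CPM in WUS-GR TSA, at 22.4, 23.0 and 21.4 CPM in Col-0 TSA, at 2.34, 5.70 and 2.74 CPM in WUS-GR DEX and at 31.6, 31.98 and 36.3 CPM in Col-0 DEX. Only WUS-GR DEX was low, and with TSA WUS-GR lay above Col-0. The interaction was 3.78 (SE 0.29, edgeR adjusted p = 4.14e-07). ICS1 (AT1G74710), the isochorismate synthase of salicylic acid production whose promoter is shown above, was likewise low in WUS-GR DEX alone. It stood at 12.3, 14.7 and 11.6 CPM in WUS-GR TSA, at 5.69, 8.82 and 8.08 CPM in Col-0 TSA, at 1.65, 1.71 and 1.11 CPM in WUS-GR DEX and at 9.29, 7.64 and 10.6 CPM in Col-0 DEX, an interaction of 3.39 (SE 0.28, edgeR adjusted p = 7.65e-07).

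AT1G28190, an uncharacterised protein on chromosome 1 (9846747 to 9848015), differed from these in that Col-0 itself moved. It stood at 4.90, 3.62 and 4.08 CPM in WUS-GR TSA, at 20.9, 14.02 and 15.3 CPM in Col-0 TSA, at 1.79, 5.92 and 2.03 CPM in WUS-GR DEX and at 148, 135 and 157 CPM in Col-0 DEX. The WUS-GR groups overlapped, while Col-0 TSA was far below Col-0 DEX, so the interaction of 3.50 (SE 0.43, edgeR adjusted p = 2.3e-05) came from the Col-0 side. AT2G07777, annotated as a mitochondrial ATP synthase subunit in the part of chromosome 2 that holds a copy of the mitochondrial genome, is less certain, because reads from the organelle copy may be counted there. It stood at 5.96, 19.4 and 11.5 CPM in WUS-GR TSA, at 1.22, 3.72 and 5.76 CPM in Col-0 TSA, at 3.81, 3.64 and 4.29 CPM in WUS-GR DEX and at 0.624, 17.9 and 12.7 CPM in Col-0 DEX. Replicates within a group differed widely, and the interaction was 3.21 (SE 0.94, edgeR adjusted p = 0.0174). It was 2.67 without WUS-GR TSA replicate 2 (edgeR adjusted p = 0.0585) and 2.59 without Col-0 DEX replicate 2 (edgeR adjusted p = 0.0595).

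The large negative interactions mirrored this form, with a high level in WUS-GR DEX. BRU6 (AT4G37390), an amido synthetase that conjugates auxin to amino acids, stood at 74.9, 76.0 and 85.5 CPM in WUS-GR TSA, at 48.4, 66.4 and 51.4 CPM in Col-0 TSA, at 181, 177 and 152 CPM in WUS-GR DEX and at 16.0, 13.98 and 12.7 CPM in Col-0 DEX. No group overlapped another, and the genotype difference was smaller with TSA from both sides, with a lower WUS-GR level and a higher Col-0 level. The interaction was -3.07 (SE 0.17, edgeR adjusted p = 5.84e-08).

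AT1G04990, a CCCH zinc finger protein on chromosome 1 (1418612 to 1421863), was high in WUS-GR DEX alone. It stood at 5.26, 6.17 and 6.001 CPM in WUS-GR TSA, at 5.69, 5.15 and 4.44 CPM in Col-0 TSA, at 40.4, 35.1 and 34.1 CPM in WUS-GR DEX and at 4.62, 3.52 and 4.34 CPM in Col-0 DEX, an interaction of -2.95 (SE 0.19, edgeR adjusted p = 1.3e-07). The genotypes overlapped with TSA. RD29B (AT5G52300), a dehydration and abscisic acid marker, stood at 6.32, 8.32 and 8.56 CPM in WUS-GR TSA, at 7.62, 11.2 and 8.18 CPM in Col-0 TSA, at 20.13, 20.9 and 19.5 CPM in WUS-GR DEX and at 4.55, 2.55 and 2.36 CPM in Col-0 DEX, an interaction of -2.93 (SE 0.29, edgeR adjusted p = 3.26e-06). Here too the genotypes overlapped with TSA.

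AT4G16563, an aspartyl protease, had the most negative interaction of the genes within these limits, -3.39 (SE 0.27, edgeR adjusted p = 5.98e-07). Its levels were 14.5, 19.4 and 15.1 CPM in WUS-GR TSA, 19.9, 17.4 and 23.7 CPM in Col-0 TSA, 47.9, 37.0 and 31.8 CPM in WUS-GR DEX and 3.12, 5.37 and 5.10 CPM in Col-0 DEX. AT2G40460, a major facilitator transporter, kept a higher level in WUS-GR with TSA. It stood at 5.43, 7.47 and 5.20 CPM in WUS-GR TSA, at 1.55, 2.85 and 2.13 CPM in Col-0 TSA, at 22.01, 15.3 and 14.6 CPM in WUS-GR DEX and at 1.25, 0.602 and 0.472 CPM in Col-0 DEX, an interaction of -3.07 (SE 0.42, edgeR adjusted p = 6.52e-05). All of these but AT2G07777 stayed past the threshold with library totals alone and in each of the 12 fits that left out 1 library.

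**Figure D3:**
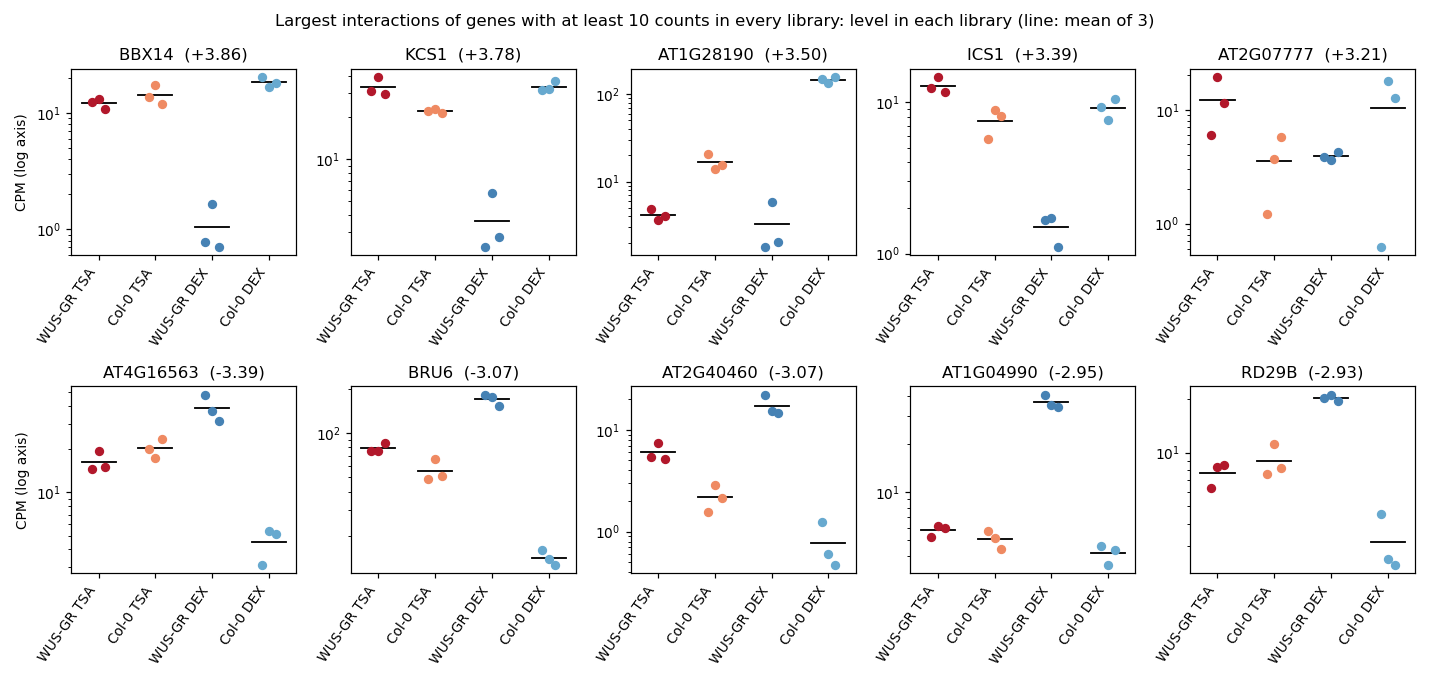
Level in each library, in CPM on log axes, of the 5 genes with the most positive interaction (top row) and the 5 with the most negative one (bottom row) among those with at least 10 counts in every library, with 3 points per group and a line at their mean. In BBX14, KCS1 and ICS1 only the WUS-GR DEX points are low, in AT1G04990 only they are high, and in AT2G07777 the replicates scatter.

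The functions were then taken in turn, over 84 lists, cell type markers included, with 1907 tested genes, each list read against the 17.7% upward and 13.3% downward of all tested genes. No list was tested as a set. The list names give what the members are known for, and a list's count says nothing of that process itself. Of all genes, 8.76% were upward and 32.0% downward with library totals alone, 17.6% and 12.3% in DESeq2's test, and 22.4% and 18.9% at an unadjusted p under 0.05, which are the backgrounds of the counts given for those settings. The members named for a list are the most positive and most negative of those past the threshold with at least 10 counts in every library, so other members can have larger fitted values. Counts of 2 or fewer in a list often moved by 1 when a library was left out, and no direction is read from them. With library totals alone, the larger of the upward and downward counts changed side in 28 lists, and with DESeq2 size factors, without the organelle genes or in DESeq2's Wald test it changed in 0.

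**Figure D4:**
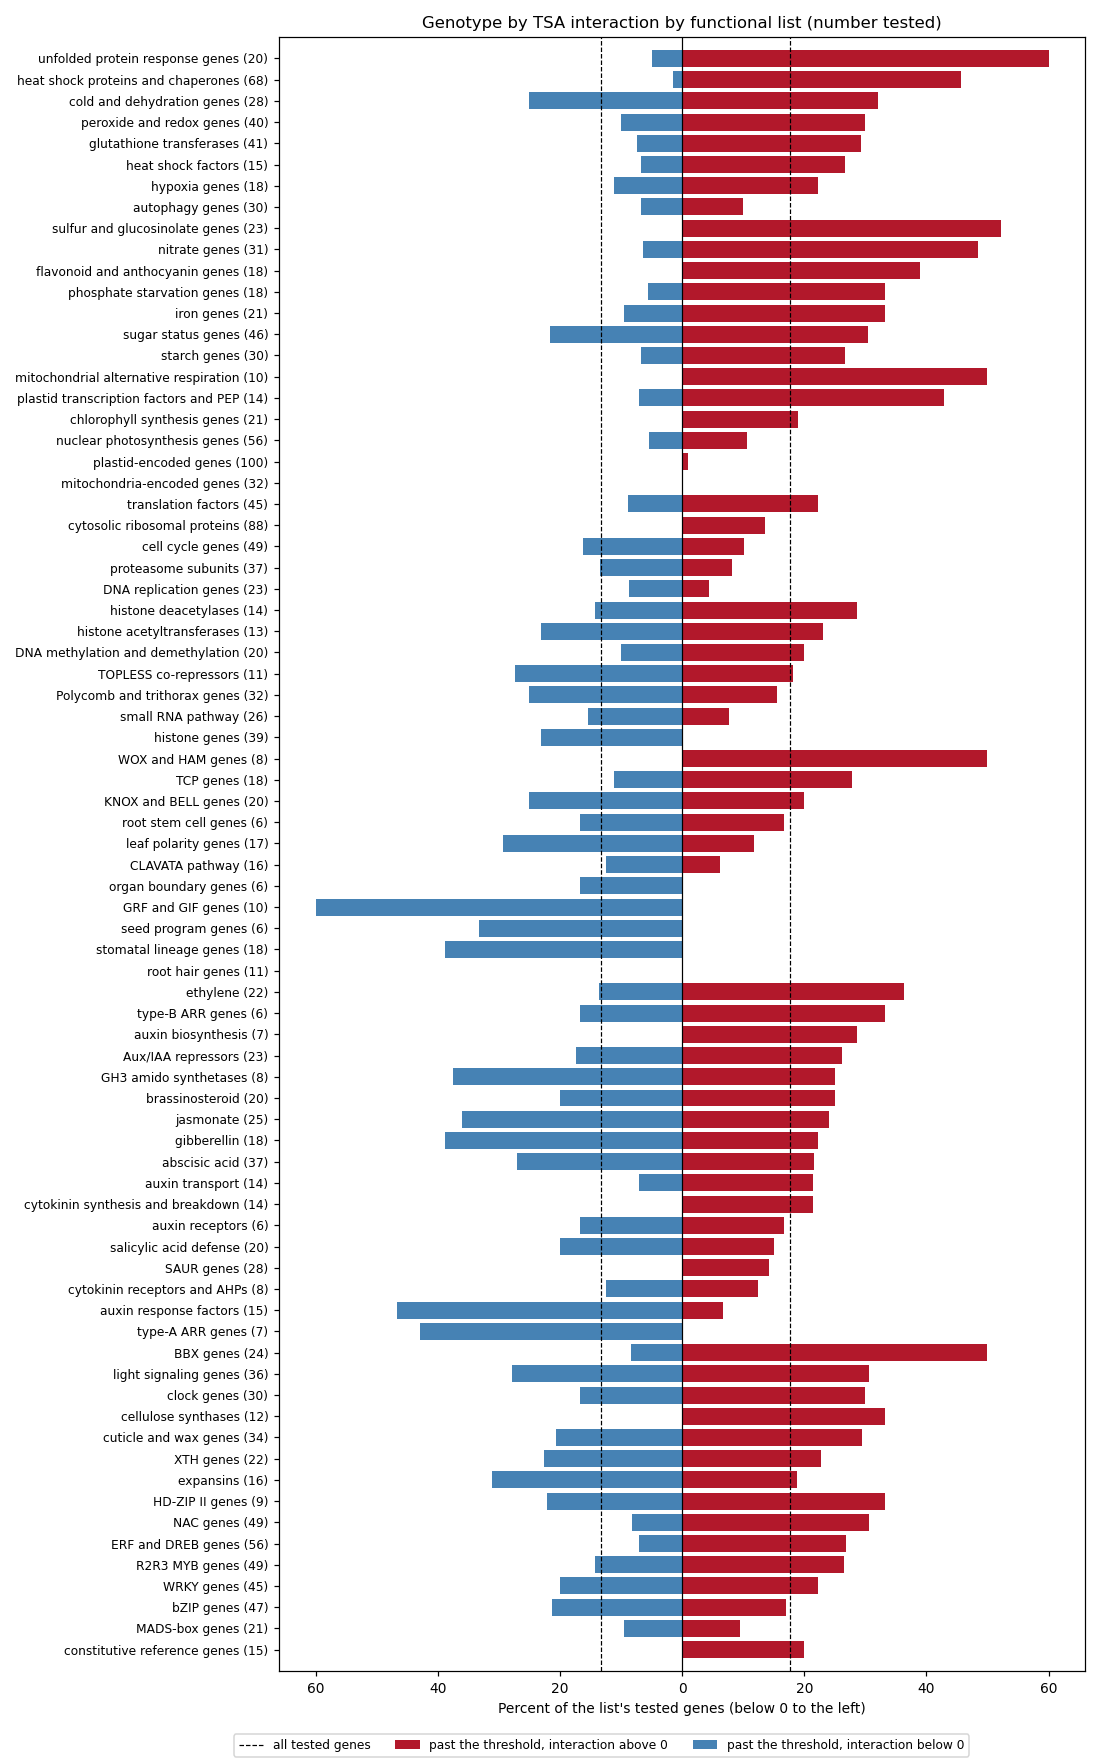
Percent of each list's tested genes (number in parentheses) that passed the threshold, with positive interactions to the right in red and negative ones to the left in blue, and dashed lines at 17.7% and 13.3% for all tested genes. Unfolded protein response, sulfur, nitrate and BBX genes and the short lists of WOX and HAM genes and alternative respiration reach 48.4% or more on the right and the growth regulators 60% on the left. The upward WOX and HAM genes include WUS, whose counts include the transgene.

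Chaperone and unfolded protein response genes held high upward shares, and that of the unfolded protein response was the highest of the functional lists. The upward shares of proteasome subunits and autophagy genes, whose counts are given below, were under the 17.7% of all tested genes. Of 68 tested heat shock proteins and chaperones, which fold or refold other proteins, 31 (45.6%) were upward and 1 downward, with a median interaction of 0.38, and with library totals alone 14 were upward and 8 downward. In 15 of the 32 members past the threshold the genotype difference changed sign. Leaving out 1 library gave 22 to 32 upward members, and leaving out both libraries with a high organelle share gave 18. AT5G51440, an HSP20-like chaperone, had the largest interaction of those with at least 10 counts in every library. It stood at 700.1, 717 and 574 CPM in WUS-GR TSA, at 248, 238 and 200.3 CPM in Col-0 TSA, at 1031, 822.5 and 980.0 CPM in WUS-GR DEX and at 738, 879 and 887 CPM in Col-0 DEX. Without TSA the genotypes overlapped, and with TSA Col-0 was low, an interaction of 1.36 (SE 0.16, edgeR adjusted p = 2.14e-05). The downward member was AT3G03773, another HSP20-like protein, at -1.44 (edgeR adjusted p = 0.000893).

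Genes of the unfolded protein response, by which the endoplasmic reticulum raises its folding capacity, were upward in 12 of 20 (60%) and downward in 1, with a median of 0.50, and with library totals alone 7 were upward and 4 downward. In 12 of the 13 members past the threshold the genotype difference changed sign, and its median over the list was 0.34 with TSA and -0.16 without. BZIP60 (AT1G42990), a transcription factor that is spliced into its active form when unfolded proteins build up, stood at 225, 237 and 206 CPM in WUS-GR TSA, at 198, 170.1 and 187.5 CPM in Col-0 TSA, at 150.4, 127 and 125 CPM in WUS-GR DEX and at 299, 345 and 364 CPM in Col-0 DEX. WUS-GR lay above Col-0 with TSA and below it without, an interaction of 1.59 (SE 0.14, edgeR adjusted p = 1.37e-06). HRD1A, a ubiquitin ligase of the degradation arm, was the downward member at -0.83 (edgeR adjusted p = 0.00172). A G-box was present in the promoter of 8 of the 20 genes, and of 6 of the 12 upward ones, and the abscisic acid response element had the same counts. Over all tested genes the G-box was in 9.26% and that element in 9.29%. The motif counts of this list were not tested.

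Other stress lists were less one-sided. Peroxide and redox genes had 12 of 40 upward and 4 downward, and with library totals alone 3 and 9, and 2 downward without WUS-GR TSA replicate 1, WUS-GR TSA replicate 2 or Col-0 TSA replicate 3, with MDAR2, a monodehydroascorbate reductase that recycles ascorbate, at 1.05 and FSD3, a plastid superoxide dismutase, at -1.08. Glutathione transferases had 12 of 41 upward and 3 downward, or 5 and 6 with library totals alone, with GSTU9 at 2.25 and DHAR1, a dehydroascorbate reductase, at -0.95. Cold and dehydration genes had 9 of 28 upward and 7 downward, or 6 and 12 with library totals alone, and their median was -0.14. ZAT10, a zinc finger repressor induced by many stresses, was at 1.34. COR15A (AT2G42540), a protein that protects chloroplast membranes in the cold, stood at 64.6, 169.0 and 84.5 CPM in WUS-GR TSA, at 4.53, 11.1 and 5.86 CPM in Col-0 TSA, at 180.0, 177.0 and 223 CPM in WUS-GR DEX and at 2.87, 4.81 and 5.99 CPM in Col-0 DEX. It was far higher in WUS-GR in either treatment, and its interaction of -1.49 (SE 0.50, edgeR adjusted p = 0.0333) passed in 6 of the 12 fits without 1 library. Heat shock factors, the transcription factors that act on chaperone genes, had 4 of 15 upward and 1 downward, or 1 and 4 with library totals alone, with HSFA7A at 0.76 and HSFA1E at -0.58.

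Hypoxia genes split with 4 of 18 upward and 2 downward, or 3 and 5 with library totals alone, and held large interactions of opposite sign. ADH1 (AT1G77120), the alcohol dehydrogenase of fermentation, stood at 18.5, 18.8 and 18.4 CPM in WUS-GR TSA, at 4.20, 4.54 and 3.45 CPM in Col-0 TSA, at 71.7, 78.4 and 81.6 CPM in WUS-GR DEX and at 2.75, 2.22 and 3.02 CPM in Col-0 DEX, an interaction of -2.66 (SE 0.17, edgeR adjusted p = 1.3e-07). HRE2 (AT2G47520), an ethylene response factor of low oxygen, stood at 46.4, 49.9 and 39.1 CPM in WUS-GR TSA, at 4.59, 3.21 and 2.69 CPM in Col-0 TSA, at 67.5, 50.1 and 56.9 CPM in WUS-GR DEX and at 16.0, 17.1 and 20.06 CPM in Col-0 DEX, an interaction of 1.99 (SE 0.23, edgeR adjusted p = 1.37e-05). Both genes were higher in WUS-GR in either treatment, and TSA came with a smaller difference for ADH1 and a larger one for HRE2.

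Among the metabolic lists, sulfur and glucosinolate genes had 12 of 23 upward (52.2%) and 0 downward, with a median of 1.00, the largest of the stress and metabolic lists. DESeq2's test gave 11 and 0, and at an unadjusted p under 0.05 in edgeR's test 12 were upward and 0 downward. With library totals alone 11 were upward and 3 downward, and the median was 0.67. Without Col-0 DEX replicate 3, 3 were downward. APR1 (AT4G04610), the reductase that commits sulfate to assimilation, stood at 7.97, 14.9 and 9.36 CPM in WUS-GR TSA, at 2.65, 2.14 and 1.70 CPM in Col-0 TSA, at 14.98, 13.02 and 8.62 CPM in WUS-GR DEX and at 7.24, 7.64 and 10.9 CPM in Col-0 DEX. The genotypes overlapped without TSA and not with it, an interaction of 1.83 (SE 0.37, edgeR adjusted p = 0.00174).

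Nitrate genes had 15 of 31 upward (48.4%) and 2 downward, with a median of 0.42, and with library totals alone 10 and 4. LBD38 (AT3G49940), a nitrate-induced repressor of nitrogen metabolism and anthocyanin synthesis, stood at 36.4, 35.9 and 33.0 CPM in WUS-GR TSA, at 40.5, 42.6 and 45.5 CPM in Col-0 TSA, at 5.29, 8.33 and 5.35 CPM in WUS-GR DEX and at 46.2, 44.6 and 53.2 CPM in Col-0 DEX. Its large deficit in WUS-GR without TSA was small with TSA, an interaction of 2.63 (SE 0.19, edgeR adjusted p = 2.77e-07). Flavonoid and anthocyanin genes had 7 of 18 upward and 0 downward, or 6 and 2 with library totals alone. Their member MYB4 (AT4G38620), a repressor of phenylpropanoid synthesis, stood at 174, 190.1 and 171 CPM in WUS-GR TSA, at 209, 193 and 188 CPM in Col-0 TSA, at 113, 112 and 130.8 CPM in WUS-GR DEX and at 404, 438 and 425 CPM in Col-0 DEX, an interaction of 1.69 (SE 0.12, edgeR adjusted p = 1.98e-07).

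Phosphate starvation genes had 6 of 18 upward and 1 downward, or 2 and 2 with library totals alone, with GDPD1, a glycerophosphodiester phosphodiesterase, at 1.99 and SPX4, a phosphate sensor, at -0.76. GDPD1 overlaps a gene on the other strand by 681 bases. Iron genes had 7 of 21 upward and 2 downward, or 4 and 3 with library totals alone, with YSL2, a metal chelate transporter, at 1.50 and FER3, a ferritin, at -0.64. Sugar status genes had 14 of 46 upward and 10 downward, or 9 and 19 with library totals alone. STP13 (AT5G26340), a hexose transporter, stood at 174, 172.5 and 149 CPM in WUS-GR TSA, at 202, 237 and 162 CPM in Col-0 TSA, at 120.1, 125 and 86.5 CPM in WUS-GR DEX and at 535, 631 and 691 CPM in Col-0 DEX. The genotypes overlapped with TSA, an interaction of 2.21 (SE 0.21, edgeR adjusted p = 2.77e-06), while CINV2, a cytosolic invertase, was at -1.70. Starch genes had 8 of 30 upward and 2 downward, but 2 upward without WUS-GR TSA replicate 2 and 5 without any 1 of WUS-GR TSA replicate 1, Col-0 TSA replicates 1 and 3, WUS-GR DEX replicate 1 and Col-0 DEX replicates 1 and 2, 4 downward without Col-0 TSA replicate 1 and 5 without Col-0 TSA replicate 3, and 1 and 12 with library totals alone, with PGI1, the plastid phosphoglucose isomerase, at 0.87 and SEX4, a phosphoglucan phosphatase of starch breakdown, at -0.82.

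Few organelle-encoded genes passed the threshold, and the part of the spread between replicates in this was not tested. Of 100 tested plastid-encoded genes 1 passed upward and 0 downward, and of 32 mitochondria-encoded genes 0 passed in either direction in edgeR's or DESeq2's test, with 0 upward and 2 downward at an unadjusted p under 0.05 in edgeR's. With library totals alone 1 plastid-encoded gene was upward, and 4 mitochondria-encoded genes were downward. Without WUS-GR TSA replicate 2, 3 plastid-encoded genes were downward. The medians of both lists were -0.42 and -0.34, and the organelle share of WUS-GR TSA replicate 2 and WUS-GR DEX replicate 1 differed from that of their replicates. The libraries were made by poly(A) selection, which leaves behind most organelle transcripts. Nuclear photosynthesis genes, for antenna and carbon fixation proteins, had 6 of 56 upward and 3 downward, or 3 and 10 with library totals alone. RBCS2B, a Rubisco small subunit, was at 2.08 and LHCB2.3, an antenna protein that overlaps a gene on the other strand by 595 bases, at -0.73.

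Plastid transcription factors and plastid polymerase components had 6 of 14 upward and 1 downward, or 6 and 3 with library totals alone. GLK1 (AT2G20570), a transcription factor of chloroplast development, stood at 68.6, 61.9 and 51.1 CPM in WUS-GR TSA, at 33.9, 34.4 and 37.1 CPM in Col-0 TSA, at 5.05, 5.52 and 4.02 CPM in WUS-GR DEX and at 16.1, 11.4 and 11.8 CPM in Col-0 DEX. WUS-GR was above Col-0 with TSA and below it without, an interaction of 2.21 (SE 0.21, edgeR adjusted p = 2.28e-06). SIG4, a plastid sigma factor, was the downward member at -0.78. Genes of alternative mitochondrial respiration had 5 of 10 upward and 0 downward, or 4 and 3 with library totals alone, and 2 downward without WUS-GR TSA replicate 2, Col-0 TSA replicate 2 or Col-0 DEX replicate 3, with BCS1, a stress-induced mitochondrial ATPase, at 1.75.

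With TMM the growth lists had 4.35% to 22.2% of members upward and 0% to 16.3% downward, against 17.7% and 13.3% of all tested genes. With library totals alone 8.76% of all genes were upward and 32.0% downward. Cytosolic ribosomal proteins had 12 of 88 upward (13.6%) and 0 downward with TMM, while with library totals alone 0 were upward and 35 downward, and leaving out WUS-GR TSA replicate 1 gave 6 upward. DESeq2's test gave 11 and 1, and at an unadjusted p under 0.05 in edgeR's test 18 were upward and 2 downward. Translation factors had 10 of 45 upward and 4 downward, 6 upward without WUS-GR TSA replicate 2, 2 downward without that library, Col-0 TSA replicate 3 or WUS-GR DEX replicate 1, and 1 and 13 with library totals alone. Proteasome subunits had 3 of 37 upward and 5 downward, or 0 and 21 with library totals alone, and 1 was upward without WUS-GR TSA replicate 1 or without WUS-GR DEX replicate 2. Cell cycle genes had 5 of 49 upward and 8 downward, or 4 and 16 with library totals alone, and 5 downward without Col-0 DEX replicate 2. E2F3, an S phase transcription factor, stood at 1.57. DNA replication genes had 1 of 23 upward, FAS1 of the histone chaperone complex at 1.31, and 2 downward, including the polymerase subunit POLD3 at -0.80, or 1 and 5 with library totals alone, and 4 were downward without Col-0 TSA replicate 3.

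Histone genes were downward in 9 of 39 (23.1%) and upward in 0, with a median of -0.35, and with library totals alone in 24 and 0. DESeq2's test also gave 9 and 0, and at an unadjusted p under 0.05 in edgeR's test 11 were downward and 1 upward. AT2G28720, annotated in the histone superfamily, stood at 7.21, 6.51 and 6.88 CPM in WUS-GR TSA, at 9.56, 7.29 and 12.7 CPM in Col-0 TSA, at 15.3, 13.98 and 15.7 CPM in WUS-GR DEX and at 8.55, 8.66 and 7.13 CPM in Col-0 DEX, an interaction of -1.41 (SE 0.23, edgeR adjusted p = 0.000283). The genotypes were apart in opposite directions with and without TSA. Many histone genes are near copies of each other, so reads may be shared between them and single members are uncertain.

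Genes of chromatin itself did not share a direction. Histone deacetylases, the targets of TSA among them, had 4 of 14 upward and 2 downward, or 1 and 7 with library totals alone, and histone acetyltransferases had 3 of 13 upward and 3 downward, or 0 and 8. Of these acetyltransferases 1 was upward without WUS-GR TSA replicate 1, without Col-0 DEX replicate 2 or without both libraries of high organelle share. Of the 11 genes listed as TOPLESS co-repressors and partners, SLK2 at -1.15, LUH at -0.56 and TPR1 at -0.50 were downward, and TPL at 0.38 and SEU at 0.43 were upward. The 3 downward members passed in each of the 12 fits without 1 library, whereas TPL passed in 7 and SEU in 4 of them, and with library totals alone TPL was at 0.05 and SEU at 0.11, neither past the threshold, and the list had 0 upward and 6 downward. The members SAP18, TPR2, SLK1, LUG, TPR3 and TPR4 lay between -0.20 and 0.15 and did not pass. The locus listed as TPR4, AT1G04530, is annotated as a tetratricopeptide repeat protein and not as TOPLESS-related, so it should not be read as a co-repressor. Polycomb and trithorax genes had 5 of 32 upward and 8 downward, or 2 and 17 with library totals alone, with BMI1A, a component that ubiquitinates histone H2A, at 1.01 and JMJ30, a histone demethylase, at -1.16. Genes of DNA methylation had 4 of 20 upward and 2 downward, or 1 and 7 with library totals alone, and 2 upward without WUS-GR TSA replicate 2, Col-0 TSA replicate 3 or Col-0 DEX replicate 2, with CMT3, a chromomethylase, at 1.88 and ROS1, a DNA glycosylase that removes methylcytosine, at -1.03. Small RNA genes had 2 of 26 upward and 4 downward, or 1 and 11 with library totals alone, and 2 downward in 8 of the 12 fits without 1 library, all but those without WUS-GR TSA replicate 3, Col-0 TSA replicate 3, Col-0 DEX replicate 1 or Col-0 DEX replicate 2, with AGO3, an Argonaute protein, at -1.48.

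Developmental regulators held the most one-sided downward list. GRF and GIF genes, transcription factors and co-activators of leaf cell proliferation, were downward in 6 of 10 (60%) and upward in 0, with a median of -0.94, and with library totals alone in 8 and 0. DESeq2's test gave 5 and 0, and at an unadjusted p under 0.05 in edgeR's test 7 were downward and 1 upward. Without WUS-GR DEX replicate 2 or without WUS-GR DEX replicate 3 the downward members numbered 3. GRF8 (AT4G24150) stood at 2.48, 1.92 and 2.56 CPM in WUS-GR TSA, at 3.26, 2.96 and 2.36 CPM in Col-0 TSA, at 4.23, 2.81 and 3.63 CPM in WUS-GR DEX and at 1.87, 1.44 and 0.566 CPM in Col-0 DEX, an interaction of -1.80 (SE 0.42, edgeR adjusted p = 0.00477). These are low levels, and the genotypes overlapped with TSA. The fitted difference changed sign in 2 of the 6 downward members, GRF8 among them. In the other 4 WUS-GR was lower in both treatments and more so with TSA, as in GRF5 with -2.40 with TSA and -0.68 without. Like GRF8, GRF5 at -1.71 and GRF1 at -0.94 passed in each of the 12 fits without 1 library, while GRF9 at -1.55 passed in 9, and GRF4 at -1.62 and GIF1 at -0.95 in 3 each. GRF2 at -0.84, GIF3 at -0.79, GIF2 at -0.25 and GRF3 at 0.51 did not pass, and GRF6 and GRF7 had too few counts for a test.

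Stomatal lineage genes were downward in 7 of 18 (38.9%) and upward in 0, with a median of -0.53, and with library totals alone in 9 and 0. DESeq2's test gave 6 and 0, and at an unadjusted p under 0.05 in edgeR's test 8 were downward and 0 upward. ER (AT2G26330), the receptor kinase ERECTA that restricts stomatal precursors and shapes organs, stood at 32.9, 31.6 and 34.9 CPM in WUS-GR TSA, at 70.2, 79.8 and 69.1 CPM in Col-0 TSA, at 48.2, 56.5 and 56.2 CPM in WUS-GR DEX and at 39.2, 33.2 and 18.8 CPM in Col-0 DEX. WUS-GR was below Col-0 with TSA and above it without, with no overlap in either treatment, an interaction of -1.97 (SE 0.25, edgeR adjusted p = 3.78e-05). The guard cell markers, the product of this lineage, summed to 30.8 to 45.1 CPM in WUS-GR TSA, 20.8 to 25.2 CPM in Col-0 TSA, 15.1 to 16.7 CPM in WUS-GR DEX and 14.2 to 17.5 CPM in Col-0 DEX, with 0 of 4 at 0 counts throughout. GC1 was their member past the threshold, upward at 2.53, and the part of cell number in these values was not tested. In bulk tissue fewer cells of a type and less RNA per cell cannot be told apart.

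**Figure D5:**
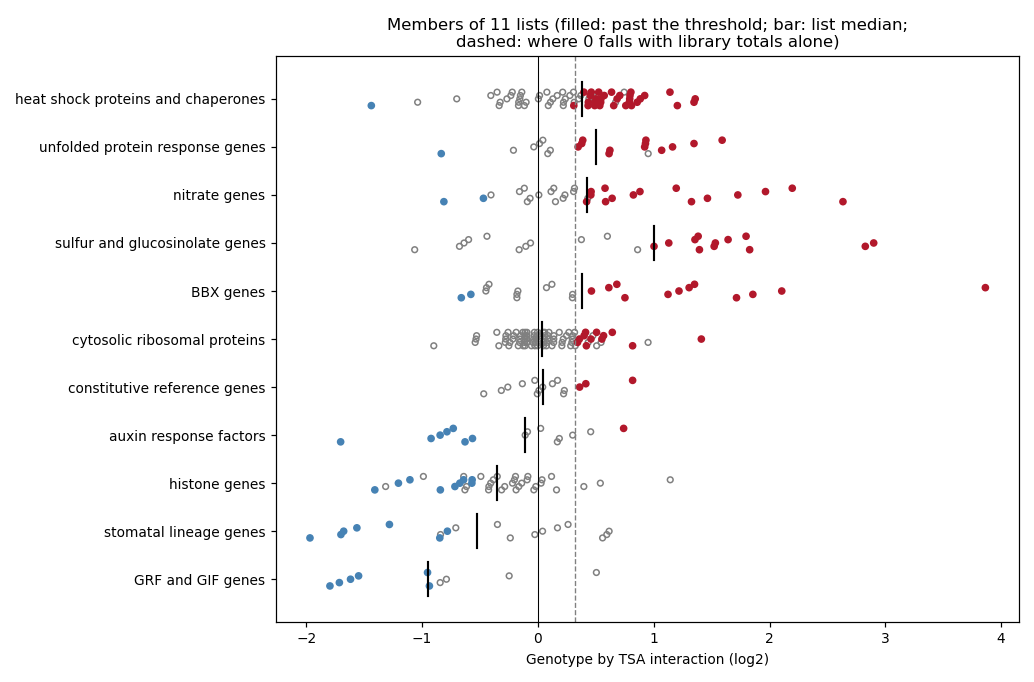
Interaction of every tested member of 11 lists (log2, horizontal), filled red or blue where past the threshold and open grey where not, with a black bar at the list median and a dashed line where zero would fall with library totals alone. Heat shock, unfolded protein response, nitrate, sulfur and BBX genes lie mostly to the right, the growth regulators mostly to the left, and the ribosomal proteins centre near 0, with most of them left of the dashed line.

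Among the meristem lists, 8 of 19 WOX and HAM genes, 16 of 40 CLAVATA pathway genes and 20 of 21 KNOX and BELL genes had enough counts for a test. Of the 8 tested WOX and HAM genes, which include WUS and the GRAS proteins that act with it, 4 were upward and 0 downward, or 2 and 0 with library totals alone. WUS, whose counts include the transgene, was among the 4 and did not pass with library totals alone. HAM4 (AT4G36710) stood at 5.32, 5.43 and 4.72 CPM in WUS-GR TSA, at 10.6, 9.18 and 11.96 CPM in Col-0 TSA, at 0.735, 0.964 and 0.619 CPM in WUS-GR DEX and at 8.42, 5.69 and 6.37 CPM in Col-0 DEX, an interaction of 2.09 (SE 0.28, edgeR adjusted p = 5.09e-05). WUS-GR was below Col-0 in either treatment, by less with TSA. Genes of the CLAVATA pathway, which limits WUS in the meristem, had 1 of 16 upward and 2 downward, the same counts as with library totals alone. CLV1 (AT1G75820), a receptor kinase of this pathway, stood at 100.5, 90.5 and 76.3 CPM in WUS-GR TSA, at 68.7, 68.2 and 81.1 CPM in Col-0 TSA, at 10.4, 11.9 and 9.64 CPM in WUS-GR DEX and at 20.7, 17.3 and 16.0 CPM in Col-0 DEX. The genotypes overlapped with TSA and not without it, an interaction of 1.05 (SE 0.17, edgeR adjusted p = 0.000334), and CLE17, a signalling peptide gene, was at -2.10. KNOX and BELL homeobox genes had 4 of 20 upward and 5 downward, or 2 and 9 with library totals alone, and the 5 downward became 2 without WUS-GR DEX replicate 3 or without Col-0 DEX replicate 2, and 3 without WUS-GR TSA replicate 1, WUS-GR TSA replicate 2, WUS-GR DEX replicate 2 or Col-0 DEX replicate 3. BEL1 was at 1.87 and ATH1, a BELL protein of the shoot meristem, at -1.37. TCP genes had 5 of 18 upward and 2 downward, or 4 and 4 with library totals alone, with TCP14, a class I member, at 2.14 and TCP7 at -1.21.

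The auxin pathway was divided by role. Auxin synthesis had 2 of 7 tested genes upward and 0 downward, or 2 and 1 with library totals alone. TAA1 (AT1G70560), the aminotransferase that starts the main route of auxin synthesis, stood at 17.4, 17.03 and 18.3 CPM in WUS-GR TSA, at 7.24, 6.42 and 7.42 CPM in Col-0 TSA, at 2.76, 2.98 and 3.49 CPM in WUS-GR DEX and at 4.55, 3.93 and 4.20 CPM in Col-0 DEX. WUS-GR lay above Col-0 with TSA and below it without, an interaction of 1.77 (SE 0.18, edgeR adjusted p = 4.34e-06). The same turn was seen in transport. PIN3 (AT1G70940), an auxin efflux carrier, stood at 494, 447 and 406 CPM in WUS-GR TSA, at 214, 211 and 206 CPM in Col-0 TSA, at 16.9, 18.2 and 17.9 CPM in WUS-GR DEX and at 45.4, 39.6 and 36.6 CPM in Col-0 DEX, an interaction of 2.29 (SE 0.13, edgeR adjusted p = 5.84e-08), while LAX2, an influx carrier, was at -1.28. Of 14 tested transport genes 3 were upward and 1 downward, or 2 and 3 with library totals alone.

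Of the 6 auxin receptors, TIR1 at 0.63 was upward and AFB3 at -0.30 downward, AFB3 in 3 of the 12 fits without 1 library, and AFB1, AFB2, AFB4 and AFB5 lay between 0.00 and 0.16 and did not pass. With library totals alone 0 were upward and 1 downward. Aux/IAA repressors had 6 of 23 upward and 4 downward, or 3 and 6 with library totals alone. IAA10 (AT1G04100) was at 2.58 and IAA3 (AT1G04240) at -1.12, and each overlaps a gene on the other strand, by 619 and 640 bases. Auxin response factors, which read the signal at promoters, leaned the other way, with 1 of 15 upward and 7 downward (46.7%), or 0 and 8 with library totals alone. ARF8 was the upward member at 0.74, and 0.41 with library totals alone, where it did not pass. MP, the activator of organ initiation, had the largest negative interaction among the members with at least 10 counts in every library, -1.70, and WUS-GR lay below Col-0 with TSA and above it without. MP was thus 1 of 2 members past the threshold whose genotype difference changed sign. In 5 others it kept its sign at a smaller size with TSA, and in 1 at a larger size.

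GH3 amido synthetases had 2 of 8 upward and 3 downward, or 2 and 4 with library totals alone. Besides BRU6, DFL1 at -2.17 and GH3.17 at -0.52 were downward, GH3.17 in 6 of the 12 fits without 1 library, and WES1 (GH3.5) at 1.23 and JAR1, which conjugates jasmonate, at 0.87 were upward. GH3.3, GH3.9 and DFL2 lay between -0.47 and 0.50 and did not pass, and GH3.1, GH3.4 and PBS3 had too few counts for a test. WES1 (AT4G27260) stood at 2132, 1982 and 2166 CPM in WUS-GR TSA, at 1130, 1368 and 1318 CPM in Col-0 TSA, at 207.5, 230.4 and 237 CPM in WUS-GR DEX and at 300.2, 344 and 315 CPM in Col-0 DEX, an interaction of 1.23 (SE 0.13, edgeR adjusted p = 5.73e-06). Its genotype order turned round between the treatments, whereas BRU6 kept WUS-GR above Col-0 in both. SAUR genes had 4 of 28 upward and 0 downward, or 3 and 0 with library totals alone, with AT2G46690 at 2.23. The upward members numbered 2 without WUS-GR TSA replicate 1 or without Col-0 DEX replicate 2, and 1 where only genes with at least 10 counts in every library were tested. DESeq2's test gave 3 and 0, and at an unadjusted p under 0.05 in edgeR's test 8 were upward and 0 downward.

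Of 7 tested type-A ARR genes, response regulators that damp the cytokinin signal, 3 were downward and 0 upward. The counts of these genes were the same with library totals alone, where 32.0% of all genes were downward, and in DESeq2's test. Among them ARR9 at -1.81 and ARR4 at -1.46 passed in each of the 12 fits without 1 library and ARR16 at -2.37 in 9, while ARR7 at -0.28, ARR6 at 0.00, ARR8 at 0.59 and ARR5 at 1.08 did not pass and ARR3, ARR15 and ARR17 had too few counts. ARR16 was near the floor, with 5 counts in each WUS-GR TSA library and 2, 4 and 9 in Col-0 DEX. It did not pass without both libraries of high organelle share. Of the type-B ARR genes, which activate transcription, ARR11 at 1.59 and ARR12 at 0.36 were upward and ARR2 at -1.10 downward. ARR12 passed in 5 of the 12 fits and was at 0.03 with library totals alone, where it did not pass and the list had 1 upward and 3 downward. Among the receptors and the AHP proteins that relay their signal, 0 were upward and 2 downward with library totals alone. With TMM HK3 at 0.62 was upward, and 0.29 with library totals alone, where it did not pass, and WOL at -1.85 was downward. HK2, AHP1, AHP2, AHP3 and AHP5 lay between -0.12 and 0.16 and did not pass. AHP4 had 0 or 1 count in each WUS-GR library, so its fitted value is no measure, and AHP6 had too few counts for a test. Genes of cytokinin synthesis and breakdown had 3 of 14 upward and 0 downward, or 1 and 3 with library totals alone, with LOG8, an enzyme that releases active cytokinin, at 1.61. DESeq2's test gave 2 and 0, and at an unadjusted p under 0.05 in edgeR's test 3 were upward and 2 downward.

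Gibberellin genes had 4 of 18 upward and 7 downward (38.9%), against 13.3% of all tested genes downward. The counts were the same with library totals alone, where 32.0% of all genes were downward. GA2OX6, which inactivates gibberellin, was at 1.71 and GA2, an early synthesis enzyme, at -1.55. In 8 of the 11 members past the threshold the genotype difference changed sign. Ethylene genes had 8 of 22 upward and 3 downward, or 7 and 4 with library totals alone, with ACS6, which makes the ethylene precursor, at 1.94 and ERF1 at -1.27. Jasmonate genes had 6 of 25 upward and 9 downward (36%). These numbers were also unchanged with library totals alone, again beside 32.0% of all genes downward. AOC1 (AT3G25760), allene oxide cyclase of jasmonate synthesis, stood at 8.51, 17.99 and 10.2 CPM in WUS-GR TSA, at 65.5, 61.4 and 79.7 CPM in Col-0 TSA, at 2.80, 6.18 and 2.299 CPM in WUS-GR DEX and at 146, 113 and 141.5 CPM in Col-0 DEX, an interaction of 2.66 (SE 0.40, edgeR adjusted p = 0.000132). VSP2, a storage protein induced by jasmonate, was at -2.65 (SE 0.41, edgeR adjusted p = 0.000181).

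Abscisic acid genes had 8 of 37 upward and 10 downward (27%), or 5 and 13 with library totals alone, and 11 of these 18 kept the sign of the genotype difference at a smaller size with TSA. PYL4, a receptor of the hormone, was at 2.69 and RD29B at -2.93. Brassinosteroid genes had 5 of 20 upward and 4 downward, or 4 and 9 with library totals alone, and 2 downward without Col-0 TSA replicate 3, with BEH1, a transcription factor of the pathway, at 1.42 and ROT3, a synthesis enzyme, at -1.51. Salicylic acid genes had 3 of 20 upward, led by ICS1, and 4 downward, or 3 and 10 with library totals alone, and 2 downward without any 1 of WUS-GR TSA replicates 1 and 2, WUS-GR DEX replicate 1 and Col-0 DEX replicates 1 and 2.

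Light regulators and the BBX family were often past the threshold. BBX genes, zinc finger proteins of light signalling, had 12 of 24 upward (50%) and 2 downward, with a median of 0.38, and with library totals alone 8 and 6. In 8 of these 14 the genotype difference was smaller with TSA, and BBX13 was at -0.66. Light signalling genes had 11 of 36 upward and 10 downward, or 8 and 16 with library totals alone. PIF7 (AT5G61270), a transcription factor that interacts with phytochrome, stood at 8.03, 9.34 and 9.12 CPM in WUS-GR TSA, at 18.3, 16.7 and 19.4 CPM in Col-0 TSA, at 3.77, 3.94 and 4.25 CPM in WUS-GR DEX and at 31.9, 36.4 and 35.8 CPM in Col-0 DEX, an interaction of 2.08 (SE 0.15, edgeR adjusted p = 2.47e-07). It overlaps a gene on the other strand by 318 bases. FHY1, which carries phytochrome A into the nucleus, was at -1.58.

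HD-ZIP II genes of shade and auxin response had 3 of 9 upward and 2 downward, or 2 and 3 with library totals alone. ATHB2 (AT4G16780), induced by shade, stood at 141, 123 and 129 CPM in WUS-GR TSA, at 102, 120.2 and 126.5 CPM in Col-0 TSA, at 2.34, 2.89 and 3.05 CPM in WUS-GR DEX and at 7.36, 10.3 and 10.9 CPM in Col-0 DEX, an interaction of 1.96 (SE 0.20, edgeR adjusted p = 4.22e-06). HAT1 at 1.73 and HAT2 at 0.85 were also upward, and HAT3 at -1.24 and HAT9 at -1.20 downward, HAT9 in 4 of the 12 fits without 1 library and HAT2 not past the threshold with library totals alone. ATHB4, HAT14, HAT22 and ATHB17 lay between -0.91 and 0.53 and did not pass, and ATHB18 had too few counts. Clock genes had 9 of 30 upward and 5 downward, or 2 and 13 with library totals alone, with FKF1, a blue light receptor, at 0.81 and PRR3 at -1.65.

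Cell wall and surface genes went both ways. Cuticle and wax genes had 10 of 34 upward and 7 downward, or 7 and 13 with library totals alone, with KCS1 upward and HTH, a gene of cuticle formation and organ separation, at -1.60. Expansins, which loosen walls, had 3 of 16 upward and 5 downward, or 2 and 5 with library totals alone, with EXPA9 at 2.06 and EXPA16 at -1.35. XTH genes, which cut and rejoin xyloglucan, had 5 of 22 upward and 5 downward, or 3 and 9 with library totals alone, and 3 downward without WUS-GR TSA replicate 1, WUS-GR DEX replicate 2 or WUS-GR DEX replicate 3. XTH30 was at 1.92, and XTH6 (AT5G65730) at -2.59 (SE 0.28, edgeR adjusted p = 7.24e-06). XTH6 stood at 10.9, 17.1 and 11.6 CPM in WUS-GR TSA, at 13.9, 11.4 and 17.1 CPM in Col-0 TSA, at 31.8, 29.98 and 21.7 CPM in WUS-GR DEX and at 5.43, 4.30 and 5.05 CPM in Col-0 DEX, so the genotypes overlapped with TSA. Cellulose synthases had 4 of 12 upward, CESA2 at 1.12 among them, and 0 downward, or 2 and 4 with library totals alone.

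Of the large transcription factor families, ERF and DREB genes had 15 of 56 upward (26.8%) and 4 downward, or 9 and 7 with library totals alone, and NAC genes 15 of 49 upward (30.6%) and 4 downward, or 8 and 7. AT1G71520 was at 2.29 and ERF11 at -1.25 in the first family, and NAC047 at 2.07 and NAC062 at -0.44 in the other. R2R3 MYB genes had 13 of 49 upward and 7 downward, or 9 and 10 with library totals alone, WRKY genes 10 of 45 upward and 9 downward, or 7 and 12, and bZIP genes 8 of 47 upward and 10 downward, or 5 and 20. Their upward members named by the rule above were MYB102 at 1.77, WRKY28 at 1.67 and TGA4 at 2.20, the last of which overlaps a gene on the other strand by 435 bases. WRKY2 (AT5G56270) stood at 3.01, 3.17 and 2.64 CPM in WUS-GR TSA, at 6.30, 5.20 and 4.30 CPM in Col-0 TSA, at 8.23, 8.94 and 7.65 CPM in WUS-GR DEX and at 4.62, 3.89 and 2.22 CPM in Col-0 DEX, an interaction of -2.05 (SE 0.31, edgeR adjusted p = 0.000145). WUS-GR was below Col-0 with TSA and above it without. The lists not described above, those of autophagy, chlorophyll synthesis, leaf polarity, root stem cell, organ boundary, MADS-box, seed program and root hair genes, had 0 to 4 members upward and 0 to 5 downward each, and most of these counts changed when 1 library was left out. With library totals alone autophagy genes had 1 of 30 upward and 12 downward in place of 3 and 2, chlorophyll synthesis genes 1 of 21 and 5 in place of 4 and 0, and MADS-box genes 0 of 21 and 10 in place of 2 and 2. Leaf polarity genes had 1 of 17 and 6 in place of 2 and 5, seed program genes 0 of 6 and 5 in place of 0 and 2, and root hair genes 0 of 11 and 3 in place of 0 and 0, and the root stem cell and organ boundary genes kept their counts. Without WUS-GR TSA replicate 2 the upward chlorophyll synthesis genes numbered 1, and without WUS-GR DEX replicate 2 the downward leaf polarity genes numbered 2.

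Some cell type markers moved with the groups. The 3 phloem markers summed to 188 to 203 CPM in WUS-GR TSA, 292 to 322 CPM in Col-0 TSA, 62.5 to 66.9 CPM in WUS-GR DEX and 184 to 200 CPM in Col-0 DEX, with 0 of 3 at 0 counts throughout. Most of this sum was SUC2, the sucrose transporter of companion cells, at 179 to 193 CPM in WUS-GR TSA, 272 to 303 CPM in Col-0 TSA, 55.2 to 59.4 CPM in WUS-GR DEX and 164 to 180.2 CPM in Col-0 DEX, with an interaction of 0.95 (SE 0.10, edgeR adjusted p = 7.63e-06). APL, a transcription factor of phloem identity, was at 0.63 (SE 0.23, edgeR adjusted p = 0.0496), though its level was lower with TSA in both genotypes, and SEOR1, a sieve element protein, was at 0.09 and did not pass. The phloem list had 2 members upward with TMM, but 1 with DESeq2 size factors, with library totals alone, without the organelle genes or in DESeq2's test. The photosynthetic leaf markers summed to 6790 to 7420 CPM in WUS-GR TSA, 4420 to 5350 CPM in Col-0 TSA, 3390 to 4040 CPM in WUS-GR DEX and 2680 to 3480 CPM in Col-0 DEX, also with 0 of 5 at 0. Of the 3 endodermis markers CASP1 was upward at 1.66 and higher in WUS-GR in either treatment, while CASP2 at 0.19 and SCR at -0.01 did not pass and had fitted levels below Col-0 in both. The part of cell type makeup in the functional lists was not tested.

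Genes past the threshold were spread over the nuclear genome, with 17.3% to 18.2% upward and 12.7% to 13.8% downward on each of the 5 chromosomes. Genes without introns made up 17% of upward, 10.8% of downward and 14.6% of all tested nuclear protein-coding genes, and the median exonic length was 1924, 1953 and 1818 bases. The TTAATGG site stood in the promoter window of 8.18% of upward, 8.12% of downward and 8.79% of tested genes. AAAATATCT was in 4.52%, 3.15% and 3.19%, GAANNTTC in 12.6%, 10.1% and 11.5%, the W-box in 35.8%, 31.9% and 32.8%, and the abscisic acid response element in 9.95%, 10.8% and 9.29%. These shares were not tested. Among the heat shock proteins and chaperones GAANNTTC was in 16 of 68 windows (23.5%), and in 10 of the 31 upward ones.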

How the data were processed

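RNA from whole seedlings of 4 groups, 3 biological replicates each, was sequenced as poly(A) libraries. The authors aligned the reads to TAIR10 with HISAT2, counted them with featureCounts and deposited raw counts per gene, one column per library. The strand setting, the annotation release and the treatment of reads with several positions are not given in the sources used here, so overlapping genes and close copies are uncertain. Genotype, treatment and replicate came from the sample labels, and all of the table's columns were used. Of 34262 identifiers, 32548 (95.0%) matched a locus of the RefSeq TAIR10.1 annotation, which gave symbols, positions and promoter windows, and 10146 had 0 counts throughout.

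Counts were tested with edgeR 4.0.16 (R 4.3.3): TMM scaling, filterByExpr with its minimum count at 10, and a two-sided quasi-likelihood F-test of the interaction in a model of genotype, treatment and their product over all 12 libraries, with Benjamini-Hochberg adjustment over all 17915 genes tested and a threshold of 0.05. The study fitted the same terms with DESeq2, which was run here as an alternative (1.42.0). CPM are counts in every 1000000 of the TMM-scaled library total. Standard errors are on the log2 scale, and p-values set the interaction against the spread between these biological replicates. At total counts of 14810658 to 21578662, a group with 3 or fewer counts in each library was treated as not detectable. The fit was tested on simulated counts.

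The functional lists and the rule for named genes were chosen with earlier results of these data known. Named are WUS and the 5 largest positive and 5 largest negative interactions past the threshold whose mean log2 CPM exceeded 1 and which had at least 10 counts in every library. Also named are the most positive and most negative members of each list past the threshold with at least 10 counts in every library. No limit on mean log2 CPM was set for these. All members of some lists of 12 or fewer are named too. Alternatives were DESeq2 size factors, library totals alone, organelle genes left out, no filter, at least 10 counts in every library, a replicate block, DESeq2's Wald test, an adjusted p of 0.01, an interaction of at least 1, and each library left out in turn. Leaving out both libraries with a high organelle share was chosen after seeing the data.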

Additional observations from a re-analysis of the deposited data

Results flagged for a closer look

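The test of the interaction is itself a test that the genotype difference is not the same with and without TSA, and 5560 genes passed it. Among genes with at least 10 counts in every library, those with the largest such differences between treatments were BBX14 at 3.86, KCS1 at 3.78, AT1G28190 at 3.50, ICS1 at 3.39 and AT2G07777 at 3.21 upward, and AT4G16563 at -3.39, BRU6 at -3.07, AT2G40460 at -3.07, AT1G04990 at -2.95 and RD29B at -2.93 downward, on the log2 scale. AT2G07777 is the least firm of these 10, with an adjusted p of 0.0524 in DESeq2's Wald test and an interaction of 2.66 (edgeR adjusted p = 0.0896) without both libraries of high organelle share.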

How the results depend on the processing

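The count of 5560 genes past the threshold stayed within 1.5 times under each scaling, each filter, DESeq2's Wald test and each library left out, the last giving 4525 to 5383 in all, 2593 to 3057 upward and 1932 to 2340 downward. It was 3345 (2110 upward, 1235 downward) at an adjusted p of 0.01 and 2030 (1095 upward, 935 downward) with an interaction of at least 1. The split moved most with library totals alone, to 1569 upward and 5741 downward, and SE, a small RNA processing gene at 0.32 with TMM, was then at -0.002 and not past the threshold. Of the others in the 139 genes named as WUS, as the largest interactions or as the extremes of a list, 0 changed direction there. The threshold was no longer passed by 10 of them. Members named only to account for a list of 12 or fewer are outside these counts. Among such members AFB2, at 0.16 with TMM, was at -0.17 with library totals alone, and TPL no longer passed. Same-numbered libraries did not deviate together, with correlations of -0.27 to 0.12 over 18 pairs, 2 of them over 0.1, and 6 of 12 libraries closest to their own number, so the numbers were not taken as pairs. The fit with a replicate block called 5721 genes, 3288 upward and 2433 downward, and lost 2 of the 139 named genes. Without both libraries of high organelle share 3950 genes passed (2293 upward, 1657 downward) and 18 of these 139 genes did not. A gene of few counts limits what can be called, and 62 called genes were not detectable in at least 1 group.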
